A study of Drosophila melanogaster with 9 samples.

Results

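The 9 genes described here encode subunits of the RNA exosome: Rrp4, Rrp40, Csl4, Ski6, Rrp42, Rrp46, Mtr3, Rrp6 and Dis3. They were found by their symbols among the 15334 genes of a normalized gene count matrix made from RNA of Drosophila melanogaster embryos. Each of the 9 symbols matched 1 gene, and all 9 genes were among the 8346 tested, which had an average of 10 or more normalized counts. The rule uses gene names and no measured value, although the set was proposed with earlier results of these data known.

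The study, whose title concerns the Ski2-family helicase Obelus, Crumbs splicing and cell polarity, had 3 groups of 3 libraries. OreR embryos were of the Oregon R wild type. The obe1/obe2 embryos were laid by mothers carrying the alleles obe1 and obe2, and the obe2/Df embryos by mothers carrying obe2 over a deficiency. In both mutant groups the fathers were obe2/+, so the mother's genotype was shared by all embryos of a library while the embryos' own genotypes were mixed. Flies were kept at standard laboratory temperatures, embryos were 3 h old, and about 50 embryos between late stage 5 and early stage 6 were picked by hand for each library. The labels do not describe the lesions or name the deficiency. Whether replicates came from separate crosses is not stated, so the p-values speak only for the variation among these samples, some of which may be technical.

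The exosome is a barrel-shaped complex that degrades or trims RNA from its 3′ end in the nucleus and the cytoplasm of eukaryotes. A ring of proteins related to the bacterial enzyme RNase PH (among them Ski6, Rrp42, Rrp46, Mtr3 and Rrp45) carries a cap of RNA-binding proteins (Rrp4, Rrp40 and Csl4), and the catalytic activity comes from the nucleases Dis3 and Rrp6. Helicases of the Ski2 and Mtr4 type thread RNA into the barrel, the former in the cytoplasm and the latter in the nucleus. At the stage sampled, maternal RNA is being cleared while transcription from the embryo's own genome starts.

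The libraries held between 61007517 and 123121486 recovered reads. The obe gene itself, listed in the matrix under an older name, had normalized counts of 5850.1, 8561.8 and 6755.2 in the OreR libraries, 821.3, 672.0 and 698.3 in obe1/obe2 and 276.7, 245.3 and 182.9 in the obe2/Df libraries. It was lower in both mutant groups than in OreR, with limma adjusted p of 1.92e-05 and 1.61e-06. Another feature also followed genotype. The summed normalized count of 14 early zygotic genes lay between 176301.9 and 262269.9 in OreR, between 106097.4 and 239833.3 in obe1/obe2, and between 20437.6 and 36363.4 in obe2/Df, with 0 of the 14 at 0 in any library. All 14 were called lower in obe2/Df than in OreR, with a median log2 fold change of -4.55, so a difference in zygotic transcription or in stage and a difference in genotype cannot be told apart in that group. Without obe2/Df replicate 1 all 14 were still called lower, but the changes were smaller, from -2.06 for slam to -4.56 for nullo. In obe1/obe2 against OreR 0 of the 14 were called, but all were negative, with a median log2 fold change of -0.469. The sums of obe1/obe2 replicates 1 and 3, 106097.4 and 109153.0, lay below every OreR library, and that of replicate 2, 239833.3, lay within the OreR range. In obe1/obe2 too, such a difference and genotype cannot be told apart. Summed counts of 8 maternal RNAs lay between 790753.8 and 931707.4 in OreR, between 857418.3 and 1028489.6 in obe1/obe2, and between 990100.1 and 1110572.9 for obe2/Df, but singly 3 of the 8 were called higher and 2 lower in obe2/Df than in OreR. Of all tested genes, 31.0% were called higher and 29.5% lower in that comparison. Without obe2/Df replicate 1 the calls of CycB as higher (limma adjusted p 0.0799) and bcd as lower (limma adjusted p 0.0562) were lost. Of 10 adult ovary and fat body markers, summed counts did not exceed 63.15 in any library, and Cp16, Cp19 and Cp38 were at 0 in all 9. Along the leading principal component (56.9% of the variance), obe2/Df replicate 1 lay at 109, apart from the other obe2/Df libraries at 47.5 and 49.8, and the obe2/Df calls below are also given without it, singly or as a group. In whole embryos, fewer cells of a type and less RNA per cell cannot be told apart.

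All 9 exosome genes were detected in every library, but their levels differed widely. Per kilobase of annotated exon, OreR embryos held most RNA of Csl4, a cap subunit, at 5071.9 ± 403.6 normalized counts (SD, n = 3), and of the nuclease Rrp6 at 4958.4 ± 414.5, and these libraries overlapped. Dis3 at 2033.9 ± 65.33, Ski6 at 1936.7 ± 149.0 and Mtr3 at 1914.2 ± 224.5 followed, again overlapping with each other and lying apart from Rrp6. Rrp46 stood alone at 1217.0 ± 242.6. The lowest levels per kilobase were those of Rrp42 at 617.3 ± 96.49, Rrp4 at 524.0 ± 110.7 and Rrp40 at 463.8 ± 47.81, whose neighbouring libraries overlapped. By group means the cap thus held both the highest and the lowest level of the 9, although each overlapped the next gene in the order. The place of Rrp40 is also uncertain, since 362 of its 1031 exon bases lie within exons of Eno, as described below. RNA levels of the subunits were therefore not equal, and nothing here measured the proteins. Exon lengths come from the Ensembl annotation of Release 6, while the authors' own annotation is not given in the sources used here.

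**Figure D1:**
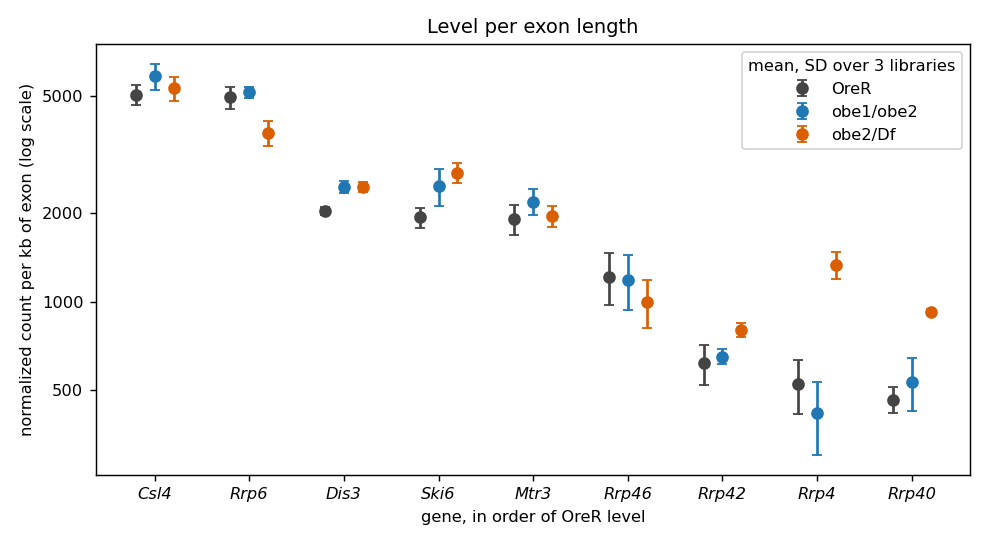
Normalized counts per kilobase of exon (log scale) for the 9 exosome genes, ordered by their OreR level. Points are group means and whiskers the SD of 3 libraries. Csl4 and Rrp6 lie highest in OreR (5071.9 and 4958.4), and in obe2/Df Rrp4 rises from the bottom group to 1337.5 while Rrp6 lies at 3761.2.

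In obe1/obe2 embryos the order per kilobase was nearly that of OreR, with Csl4 at 5856.2 ± 609.8 at the top and Rrp4 at 416.2 ± 116.3 at the bottom. In obe2/Df embryos Rrp4 reached 1337.5 ± 143.3 per kilobase and stood above Rrp46 at 997.3 ± 184.4, with no overlap between their libraries. Rrp40 at 925.0 ± 18.28 overlapped Rrp46 and lay above Rrp42 at 801.0 ± 41.89. At the top, Rrp6 had 3761.2 ± 361.2 per kilobase and lay apart from Csl4 at 5325.7 ± 513.8. The sum over the 9 genes was 18737.3 ± 1240.7 per kilobase in OreR, 20940.0 ± 1534.6 for obe1/obe2 and 20306.4 ± 1171.3 for obe2/Df, and the groups overlapped. Within this sum the share of Rrp4 was 2.79% ± 0.47 in OreR, 2.02% ± 0.722 for obe1/obe2 and 6.59% ± 0.659 for obe2/Df. The share of Rrp40 was 2.47% ± 0.116, 2.55% ± 0.556 and 4.56% ± 0.263 in the same order of groups. The share of Rrp6 was 26.5% ± 2.14, 24.7% ± 0.957 and 18.6% ± 2.09. In obe2/Df the shares of Rrp4 and Rrp40 thus lay above those of all 6 other libraries and the share of Rrp6 below them, while Csl4 held 27.1% ± 0.374, 27.9% ± 0.945 and 26.2% ± 1.27.

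Comparing obe2/Df with OreR asks how exosome gene expression went with the mothers' genotype, and 5 of the 9 genes passed the test. In this comparison the obe2 allele, the deficiency and any difference in stock background cannot be told apart. Rrp4, Rrp40, Ski6 and Dis3 were higher and Rrp6 was lower in obe2/Df (limma on log2 normalized counts, Benjamini-Hochberg adjusted p under 0.05 over 8346 genes). This is 55.6% of the 9, where 60.5% of all tested genes were called, 31.0% higher and 29.5% lower, so being called did not set the exosome genes apart. The same 5 calls were made without obe2/Df replicate 1. The median size of the log2 fold change was 0.39 over the 9 genes and 0.50 over all tested genes, and the median signed value was 0.27 against -0.01. With obe2/Df libraries wholly above OreR for 5 of the genes (background 36.2%) and wholly below for 1 (background 34.3%), the libraries did not overlap for 6 of the 9 genes, against 70.5% of all tested genes. Only Rrp4 was both called and at least 2-fold different, where 22.7% of all tested genes were.

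In obe1/obe2, whose mothers carry 2 obe alleles and no deficiency, 1 of the 9 genes was called against OreR: Dis3 was higher. This is 11.1% of the 9, below the 22.6% of all tested genes called in that comparison (11.0% higher, 11.7% lower), which with 9 genes is a difference of about 1 gene. None was lower, and none was at an unadjusted limma p under 0.05 in that direction, nor by edgeR or DESeq2 (0 by each tool). At an unadjusted p under 0.05, 2 were higher, and edgeR called 1 and DESeq2 2 higher. The obe1/obe2 libraries lay wholly above OreR for 2 genes (background 17.1%) and wholly below for 0 (background 20.2%, and 37.3% in either direction). A called change of at least 2-fold was seen for 0 of the 9, against 8.32% of all tested genes. The median size of the log2 fold change was 0.20 over the 9 genes and 0.28 over all tested genes.

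Set directly against obe1/obe2, obe2/Df embryos had higher Rrp4 and Rrp40 and lower Rrp6. These 3 genes are 33.3% of the 9, against 44.7% of all tested genes (25.2% higher, 19.5% lower). Libraries did not overlap for 3 genes that were higher (background 30.7%) and 1 that was lower (background 29.2%, and 59.8% in either direction). Rrp4 alone was called and at least 2-fold different, where 17.1% of all tested genes were. The comparisons of each mutant group with OreR share the OreR libraries, and the comparison of the mutant groups shares libraries with both.

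**Figure D2:**
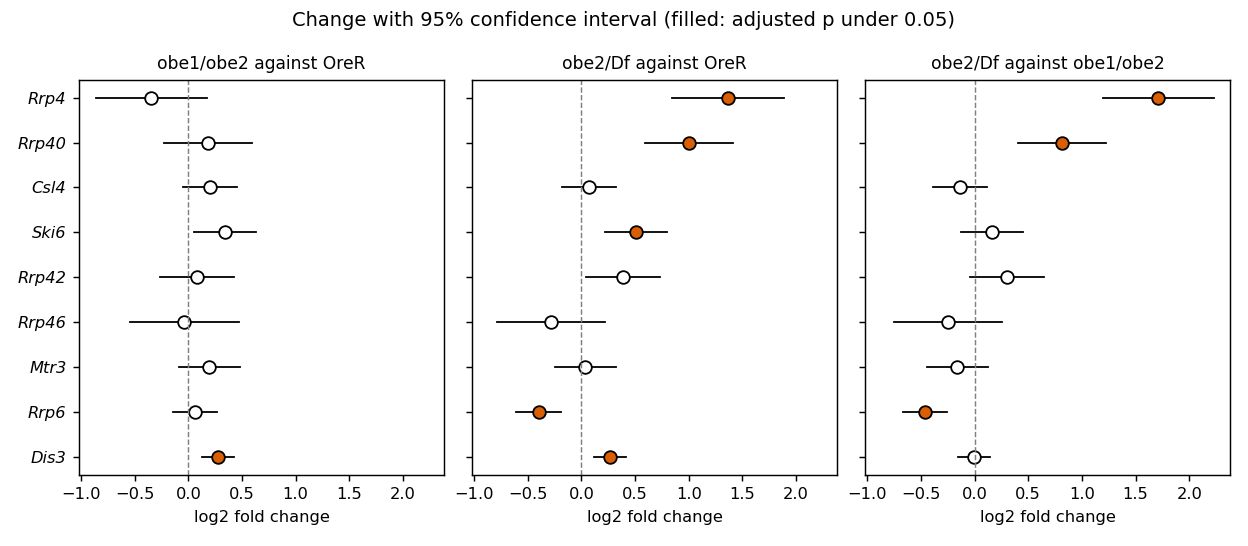
Log2 fold change of each exosome gene in the 3 comparisons, with the 95% confidence interval from the limma fit as a line. Filled points have an adjusted p under 0.05: Dis3 alone in obe1/obe2 against OreR, 5 genes in obe2/Df against OreR, and Rrp4, Rrp40 and Rrp6 between the mutant groups. Points near 0 can change side under another scaling, as Csl4 and Mtr3 did in obe2/Df against OreR under quantile normalization.

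The cap held the 2 largest changes among the 9 genes, those of Rrp4 and Rrp40, while Csl4 was not called in any comparison of the main fit. Rrp4 carries RNA-binding domains at the entrance of the channel. Its normalized counts were 733.8, 566.6 and 487.1 in OreR, 624.1, 377.2 and 418.5 in obe1/obe2, and 1347.1, 1544.9 and 1670.2 in the obe2/Df libraries. Every obe2/Df library lay above all 6 others, and the OreR and obe1/obe2 libraries overlapped. The rise from OreR to obe2/Df was 2.58-fold (95% confidence interval 1.8 to 3.69), a log2 fold change of 1.37 ± 0.23 (SE, n = 3 per group) with a limma adjusted p of 0.00149. Without obe2/Df replicate 1 it was 1.45. From obe1/obe2 to obe2/Df the log2 fold change was 1.71 ± 0.23 with a limma adjusted p of 0.00205, and 1.80 without obe2/Df replicate 1. Between obe1/obe2 and OreR it was -0.35 ± 0.23 (95% interval -0.86 to 0.17) and was not called. The size of the change from OreR to obe2/Df was at percentile 81.2 of all tested genes. The smallest read count behind these values was 332, which gives a counting error well under the spread between libraries: in OreR the SD was 21.1% of the mean and the counting error 4.3%.

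Rrp40 is the cap subunit that sits beside Rrp4 and also binds RNA. It had 517.4, 422.8 and 494.3 normalized counts in OreR, 585.8, 422.1 and 640.3 in obe1/obe2, and 937.5, 949.0 and 974.4 in the obe2/Df libraries. The obe2/Df libraries differed little from each other, with an SD of 1.98% of the mean, and all lay above the 6 others. The rise over OreR was 2.0-fold (95% interval 1.5 to 2.66), or 0.999 ± 0.18 on the log2 scale (limma adjusted p 0.0021), and it was 1.01 without obe2/Df replicate 1. Over obe1/obe2 the log2 fold change was 0.82 ± 0.18 (limma adjusted p 0.00764), or 0.83 without obe2/Df replicate 1, and this call was lost under quantile normalization, where the value was 0.37 with an adjusted p of 0.171. In obe1/obe2 against OreR it was 0.18 ± 0.18 (95% interval -0.23 to 0.59) and not called. In the Release 6 annotation 362 of the 1031 exon bases of Rrp40 lie within exons of Eno, which encodes the glycolytic enzyme enolase, on the opposite strand. The library kit named in the labels does not mark strand, so reads in that stretch cannot be assigned to either gene. Eno was far more abundant, with 58679.9 ± 3280.2 normalized counts in OreR and 82628.2 ± 5026.8 in obe2/Df, a log2 fold change of 0.49 ± 0.12 (limma adjusted p 0.00674). Its part in the Rrp40 counts was not tested. Rrp4 overlaps no annotated gene.

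Csl4, the remaining RNA-binding cap subunit, was not called in any comparison of the main fit. With library weights it was called in obe1/obe2 against OreR, at 0.30 (limma adjusted p 0.0205). In that fit obe1/obe2 replicate 3 had a weight of 5.14, against 0.339 and 0.416 for replicates 1 and 2. The weighted group value thus rests mostly on replicate 3. It had 5165.7, 4410.3 and 4726.7 normalized counts in OreR, 4855.1, 5720.2 and 5939.1 in obe1/obe2, and 4491.1, 5448.9 and 5078.5 in the obe2/Df libraries. All 3 groups overlapped. The log2 fold change was 0.07 ± 0.11 in obe2/Df against OreR (95% interval -0.18 to 0.32), a value that changed sign under quantile normalization. In obe1/obe2 it was 0.20 ± 0.11 against OreR (95% interval -0.05 to 0.46), and between the mutant groups it was -0.14 ± 0.11 (95% interval -0.39 to 0.11). The upper bound in obe2/Df lies below the lower bounds of 0.85 for Rrp4 and 0.59 for Rrp40.

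**Figure D3:**
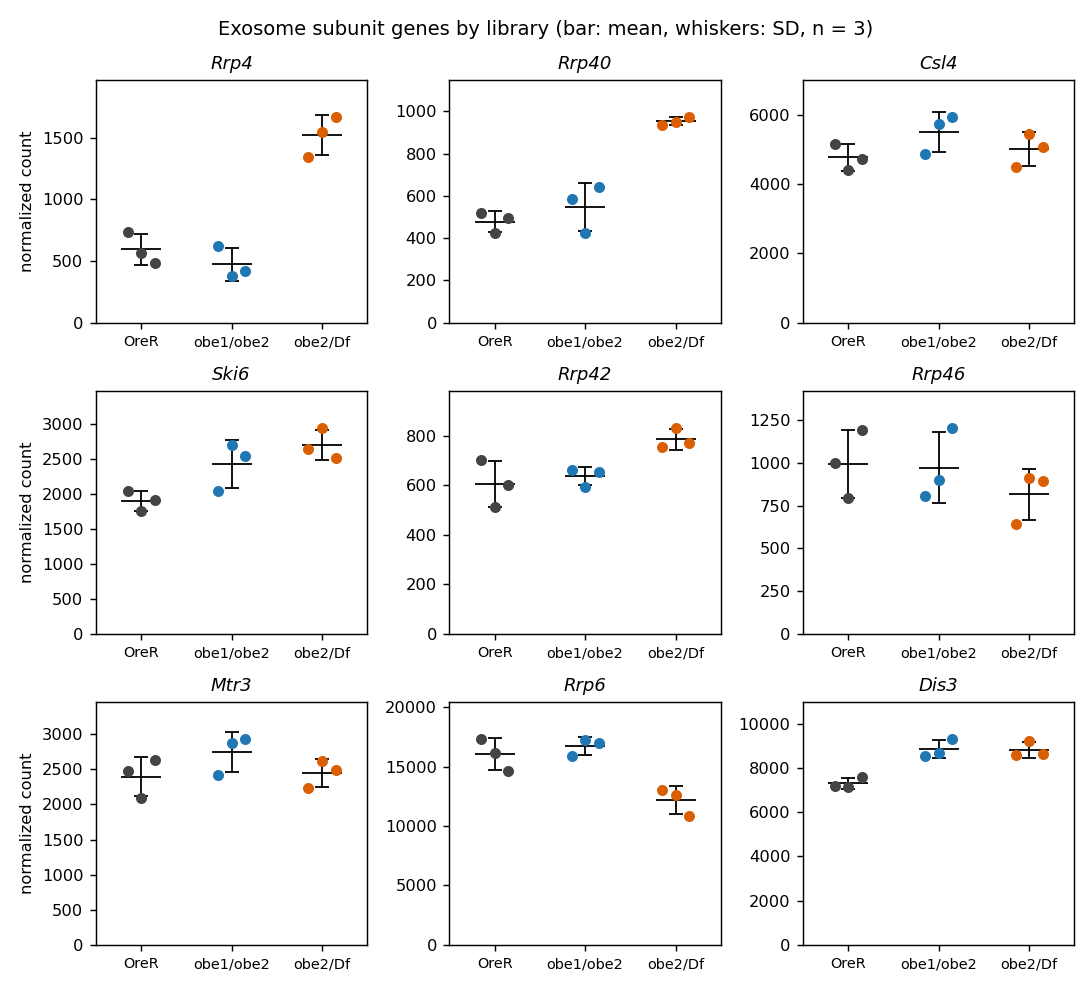
Normalized counts of the 9 exosome genes in each of the 9 libraries, with a scale from 0 for each gene. Points are libraries, the horizontal bar is the group mean and the whiskers are the SD of 3 libraries. In obe2/Df the libraries of Rrp4 (1347.1 to 1670.2) and Rrp40 (937.5 to 974.4) lie above all others, and those of Rrp6 (10830.8 to 13021.3) below all others.

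In the ring, changes were smaller and 1 of the 4 members was called. Ski6, the counterpart of yeast Rrp41, had 2035.5, 1744.7 and 1913.9 normalized counts in OreR, 2037.0, 2687.1 and 2541.0 in obe1/obe2, and 2638.8, 2938.2 and 2512.6 in the obe2/Df libraries. Both mutant groups lay wholly above OreR and overlapped each other, although the lowest obe1/obe2 library exceeded the highest OreR library by only a few counts. In obe2/Df the log2 fold change over OreR was 0.51 ± 0.13 (limma adjusted p 0.00896), and 0.52 without obe2/Df replicate 1. Under quantile normalization it was 0.26 with an adjusted p of 0.199. In obe1/obe2 the value was 0.34 ± 0.13 (limma adjusted p 0.0855, 95% interval 0.05 to 0.64), which DESeq2 on the recovered reads called. The mutant groups differed by 0.16 ± 0.13 (95% interval -0.13 to 0.45).

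Rrp42 is a ring protein whose counterpart pairs with that of Mtr3 in yeast and human. It had 703.2, 514.2 and 599.3 normalized counts in OreR, 661.4, 594.2 and 655.4 in obe1/obe2, and 753.9, 832.2 and 771.2 in the obe2/Df libraries. The obe2/Df libraries lay above all others, but the log2 fold change over OreR of 0.39 ± 0.15 (95% interval 0.04 to 0.73) had a limma adjusted p of 0.053. It passed under 4 other settings, given with the other alternatives, and without OreR replicate 1, where it was 0.50 with an adjusted p of 0.032. In obe1/obe2 it was 0.08 ± 0.15 (95% interval -0.26 to 0.43), and between the mutant groups 0.30 ± 0.15 (95% interval -0.04 to 0.65).

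Rrp46, another ring protein, was the most variable of the ring genes. Its normalized counts were 999.5, 796.6 and 1193.9 in OreR, 808.9, 901.8 and 1206.2 in obe1/obe2, and 642.6, 910.5 and 897.3 in the obe2/Df libraries. The groups overlapped throughout, and the SD was between 18.5% and 21.4% of the mean in each group. Against OreR the log2 fold changes were -0.04 ± 0.22 in obe1/obe2 (95% interval -0.54 to 0.47), which was positive under quantile normalization and with library weights, and -0.29 ± 0.22 in obe2/Df (95% interval -0.79 to 0.22). Changes well inside these intervals were not detectable at this spread.

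Mtr3, the remaining ring member of the 9, had 2480.0, 2085.5 and 2630.2 normalized counts in OreR, 2421.8, 2882.1 and 2933.0 in obe1/obe2, and 2233.2, 2626.2 and 2491.4 in the obe2/Df libraries. No group stood apart. The log2 fold change over OreR was 0.20 ± 0.13 in obe1/obe2 (95% interval -0.09 to 0.48) and 0.03 ± 0.13 in obe2/Df (95% interval -0.25 to 0.32), the latter negative under quantile normalization. In the annotation 100 exon bases of Mtr3 lie within exons of the splicing factor gene Prp3 on the opposite strand.

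Rrp45, a further ring protein whose counterpart pairs with that of Ski6 in yeast and human, is not among the 9 genes and is given for comparison. It had 1881.4, 2051.7 and 1753.9 normalized counts in OreR, 2044.6, 1272.6 and 1547.8 in obe1/obe2, and 3458.5, 2917.7 and 3269.4 in the obe2/Df libraries. Its obe2/Df libraries lay above all 6 others. The log2 fold change was 0.76 ± 0.17 over OreR (limma adjusted p 0.00494) and 1.01 ± 0.17 over obe1/obe2 (limma adjusted p 0.00282). Without obe2/Df replicate 1 these values were 0.71 and 0.96, both still called. It shares 240 exon bases with Sap30 on the opposite strand.

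The nucleases went in opposite directions in obe2/Df. Rrp6, a nuclease of the nuclear exosome that trims 3′ ends one nucleotide at a time, had 17319.8, 16127.4 and 14644.6 normalized counts in OreR, 15891.0, 17252.3 and 17028.2 in obe1/obe2, and 13021.3, 12627.5 and 10830.8 in the obe2/Df libraries. All obe2/Df libraries lay below the 6 others, while OreR and obe1/obe2 overlapped. Rrp6 RNA in obe2/Df was 0.758 of its OreR level, a log2 fold change of -0.40 ± 0.09 (limma adjusted p 0.00568) that became -0.45 without obe2/Df replicate 1. Against obe1/obe2 it was -0.46 ± 0.09 (limma adjusted p 0.00473), or -0.52 without obe2/Df replicate 1. In obe1/obe2 against OreR it was 0.06 ± 0.09 (95% interval -0.14 to 0.27). Since counting error was under 1% of the mean, the spread of 8.36% in OreR was between libraries.

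Dis3, which is both an exonuclease and an endonuclease in other eukaryotes, was the only one of the 9 called in both mutant groups. Its normalized counts were 7194.1, 7132.6 and 7565.9 in OreR, 8528.9, 8681.1 and 9301.8 in obe1/obe2, and 8582.4, 9202.6 and 8605.2 in the obe2/Df libraries. Every mutant library lay above every OreR library, and the mutant groups overlapped. The spread was the smallest of the 9 genes in OreR, with an SD of 3.21% of the mean. The log2 fold change over OreR was 0.28 ± 0.07 in obe1/obe2, with a limma adjusted p of 0.0169, and 0.27 ± 0.07 in obe2/Df, with one of 0.00758. The obe2/Df value was 0.29 without its replicate 1 and kept its call under every alternative run. The obe1/obe2 call was lost when OreR replicate 1 was left out (adjusted p 0.0556), when obe1/obe2 replicate 3 was left out (adjusted p 0.0655) and when only the 6 libraries of the pair were fitted (adjusted p 0.0639). The mutant groups differed by -0.01 ± 0.07 (95% interval -0.16 to 0.14). Dis3 shares 149 exon bases with CG6432 on the same strand, a gene with low counts in every library.

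**Figure D4:**
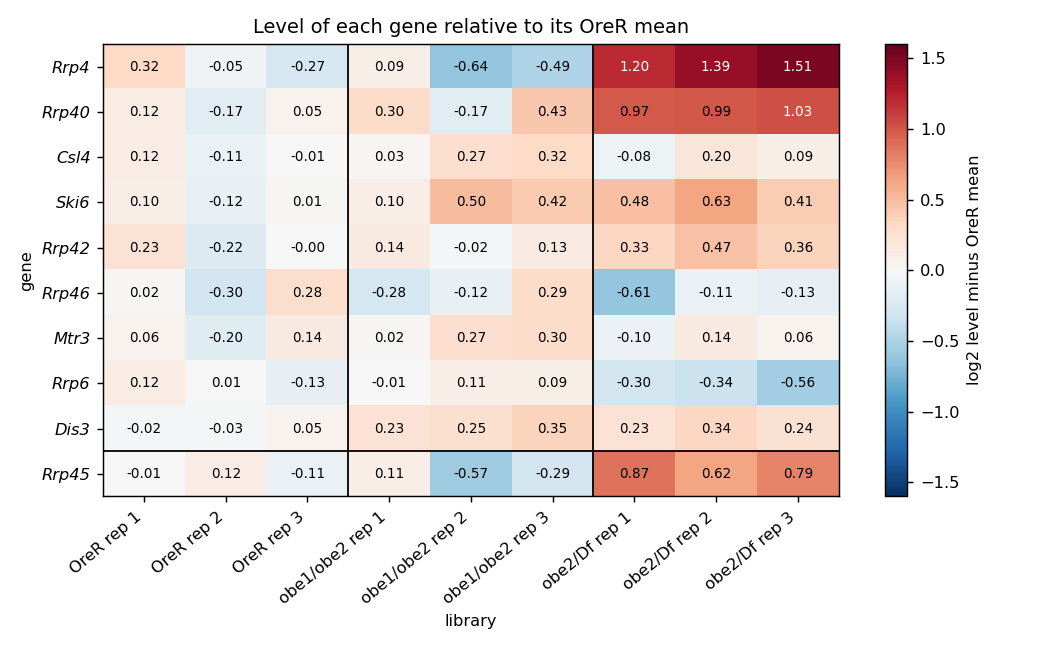
Log2 level of each exosome gene, and of Rrp45 below the line, in each library relative to the gene's OreR mean. Colours run from blue (lower) to red (higher). Rrp4, Rrp40 and Rrp45 are red in the 3 obe2/Df libraries, Rrp6 is blue there, and Dis3 is pale red in all 6 mutant libraries.

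The profiles within the complex were compared by the root mean square difference of log2 levels over the 9 libraries, each relative to the gene's own OreR mean. Csl4 and Mtr3 were the most alike of the 9, at 0.0657. Rrp4 was the least like any other: its nearest, Rrp40, differed by 0.433. The nearest to Rrp40 was Ski6 at 0.375, and the nearest to Rrp6 was Rrp46 at 0.295. Outside the complex, the genes most like the median profile of the 9 were Aven at 0.0491, bic at 0.0648, CG8038 at 0.0656, CG12237 at 0.0671 and CG8067 at 0.0691. For Rrp4 the nearest outside gene was CG9902 at 0.109, and for Rrp6 it was MED26, a Mediator subunit gene, at 0.0301. All genes of a library share its depth and size factor, so likeness is a description over 9 libraries.

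Changes in obe2/Df also went with a gene's overall level, in ranges of the mean normalized count that were chosen after the data were seen. Among the 449 tested genes with a mean from 500 to 1000, where Rrp4, Rrp40, Rrp42 and Rrp46 lie, the median log2 fold change of obe2/Df against OreR was 0.47, with quartiles of -0.36 and 1.22. Rrp4 at 1.37 lay above that upper quartile and Rrp40 at 0.999 within the quartiles. Among the 1399 genes from 1000 to 3000, where Ski6 and Mtr3 lie, the median was 0.36. Among the 2232 genes from 3000 to 10000, with Csl4 and Dis3, the median was -0.002. Among the 1517 genes from 10000 to 30000 it was -0.16 with quartiles of -0.40 and 0.20, and Rrp6 lay at the lower quartile. Rrp4, Rrp40, Rrp42, Ski6 and Rrp6 thus had the sign of the median at their level, while Rrp46 at -0.29 lay on the other side of a positive median and Dis3 at 0.27 was called where the median was near 0.

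**Figure D5:**
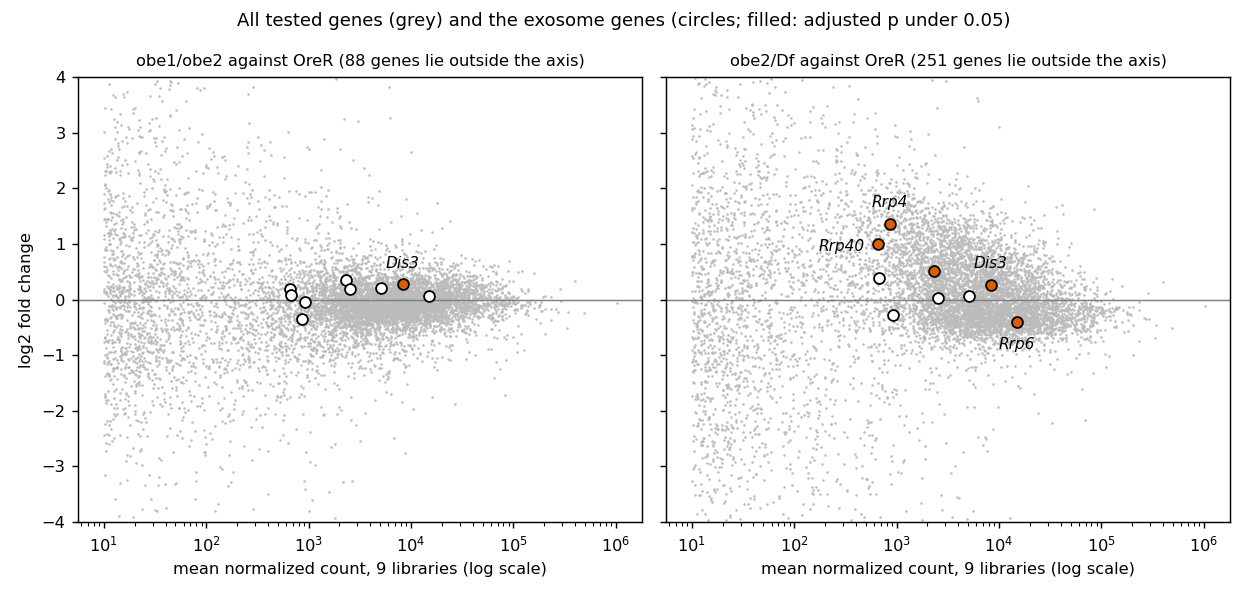
Log2 fold change against mean normalized count (log scale) for all 8346 tested genes in grey and the 9 exosome genes as circles, filled where the adjusted p was under 0.05. In obe2/Df against OreR (right), Rrp4 at 1.37 and Rrp40 at 0.999 lie among the less abundant genes, whose median was 0.47, and Rrp6 at -0.40 among the more abundant, whose median was -0.16.

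The 9 genes lie on 4 chromosome arms in the Release 6 annotation: Rrp40, Csl4 and Ski6 on 2L, Rrp4 and Rrp42 on 2R, Mtr3 on 3L, and Rrp46, Rrp6 and Dis3 on 3R, the arm that holds obe. Rrp6 is the nearest to obe with 92 protein-coding genes between them, against 641 for Rrp46 and 1072 for Dis3. Since the labels do not give the extent of the deficiency, whether it reaches Rrp6 was not tested. The neighbours of Rrp6 changed in both directions. In obe2/Df against OreR, btsz on one side had a log2 fold change of -1.93 ± 0.48 (limma adjusted p 0.00831) and CG33331 on the other of 1.80 ± 0.42 (limma adjusted p 0.00599). CG3631, which shares 134 exon bases with Rrp6 on the opposite strand, was higher by 0.34 (limma adjusted p 0.00415). Of the neighbours of Rrp4, the transcription factor gene pita on the same strand was lower, with -0.42 ± 0.08 (limma adjusted p 0.00216), and the integrin gene alphaPS5 on the opposite strand was higher, with 1.55 ± 0.40 (adjusted p 0.00999). Without obe2/Df replicate 1 the values were -1.66 for btsz, 1.94 for CG33331, 0.33 for CG3631, -0.43 for pita and 1.42 for alphaPS5, all still called.

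Genes that work with the exosome changed in both directions, and their counts are to be read against the shares of all tested genes called: 31.0% higher and 29.5% lower in obe2/Df against OreR, and 11.0% and 11.7% in obe1/obe2 against OreR. No list was tested against those shares, and nothing particular to a list is read from its count. Without obe2/Df replicate 1, each obe2/Df gene named below as higher or lower than OreR was still called, except Cnot4. The helicase genes tie it to the nucleus and the cytoplasm: l(2)35Df, the fly Mtr4, had a log2 fold change over OreR of 0.53 ± 0.09 in obe1/obe2 (limma adjusted p 0.00376), while its obe2/Df value was 0.004 ± 0.09 (adjusted p 0.977). Of the 12 nuclear cofactors listed, 9 were found and tested. In obe2/Df 3 were lower, namely Ars2 and the cap-binding proteins Cbp20 and Cbp80, which hand nascent transcripts to the exosome. Their log2 fold changes against OreR were -0.64 ± 0.07 (limma adjusted p 0.000181), -0.60 ± 0.13 and -0.38 ± 0.07. None of the 9 was higher, and 0 were at an unadjusted p under 0.05 or by edgeR or DESeq2. In obe1/obe2 1 was higher (l(2)35Df) and 3 were lower (CG9715, Cbp20 and Trf4-2), and the lower count was 1 without OreR replicate 1, OreR replicate 3 or obe1/obe2 replicate 2, and 0 without obe1/obe2 replicate 3.

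Of 5 listed genes of the cytoplasmic SKI complex and of ribosome rescue, 4 were tested. HBS1 and pelo, which release stalled ribosomes, were higher in obe2/Df by 0.59 ± 0.11 (limma adjusted p 0.00238) and 0.47 ± 0.12 (adjusted p 0.00933). CG3909, the fly Ski8, was lower there with -0.59 ± 0.11 (adjusted p 0.00207). In obe1/obe2 HBS1 was higher with 0.43 ± 0.11 (adjusted p 0.0239) and CG3909 lower with -0.35 ± 0.11 (adjusted p 0.0474). Each of these 2 calls was lost in some fits with 1 library fewer, without OreR replicate 1, OreR replicate 3 or obe1/obe2 replicate 3 for both genes, and for CG3909 also without obe1/obe2 replicate 1 or 2 or obe2/Df replicate 2 or 3. With all 9 libraries, edgeR did not call CG3909 in obe1/obe2, while DESeq2 called 2 of the 4 genes lower there. Decapping and decay from the 5′ end, the other route of mRNA turnover, had 9 tested genes. In obe2/Df 2 were lower, where 29.5% of all tested genes were: Patr-1 with -0.51 ± 0.08 (limma adjusted p 0.000929) and the helicase me31B with -0.35 ± 0.07 (adjusted p 0.00376). Against 31.0% of all tested genes, 0 were higher, also at an unadjusted p and by edgeR and DESeq2. Without OreR replicate 2, 1 was higher. In obe1/obe2 Dcp2, the decapping enzyme, was lower with -0.34 ± 0.08 (adjusted p 0.02), a call lost without OreR replicate 2 or 3, and 0 were higher (1 at an unadjusted p, 0 by edgeR and DESeq2, and 1 without OreR replicate 2). Leaving out OreR replicate 3 brought the count of lower genes to 0.

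Deadenylation, which precedes both routes, had 11 tested genes, with 3 higher and 4 lower in obe2/Df and 2 in each direction in obe1/obe2. Of all tested genes, 31.0% were higher and 29.5% lower in obe2/Df against OreR, and 11.0% and 11.7% in obe1/obe2 against OreR. CG13567, the fly Not11, had the largest change, 1.55 ± 0.38 in obe2/Df (limma adjusted p 0.00809). CG8232, the fly PAN2, was lower in both mutant groups, with -0.31 ± 0.07 in obe1/obe2 (adjusted p 0.0172) and -0.68 ± 0.07 with obe2/Df mothers (adjusted p 0.000206). The count of higher genes in obe1/obe2 was 1 when any single library other than OreR replicate 3 was left out, and it was 1 in obe2/Df without OreR replicate 1 or without obe2/Df replicate 3. The count of lower genes in obe1/obe2 was 1 without any 1 of the OreR libraries or without obe1/obe2 replicate 2 or 3. In obe2/Df the count of lower genes lay between 3 and 5 when 1 library was left out. Without obe2/Df replicate 1, the call of Cnot4 as lower was lost (limma adjusted p 0.0597). Gene names by function for CG numbers come from the RefSeq Release 6 table, and 1 listed SKI gene and 3 nuclear cofactors were not found.

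In the authors' deposited table for obe2/Df against OreR, Rrp4 has a fold of 2.55 with an adjusted p-value of 0.0385. It is the 1 exosome gene of 9 with an adjusted p-value under 0.05 in the authors' deposited table, where 12.7% of all 12280 genes with such a value have one, and Rrp40 with a fold of 1.99 has 0.173. Rrp6 has a fold of 0.759 in the authors' deposited table, with an adjusted p-value of 0.79, and Dis3 a fold of 1.21 with 0.899. In the authors' deposited table for obe1/obe2 against OreR, 0 of 9 have an adjusted or an unadjusted p-value under 0.05, where 4.2% of all 12504 genes have an adjusted one under it, and the folds run from 0.794 for Rrp4 to 1.28 for Ski6.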

How the data were processed

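RNA of 9 libraries was sequenced from TruSeq RNA v2 kits on a HiSeq2500, per the labels. STAR, Cuffdiff, Cufflinks 2.1.1 and the build dm3 appear in the submitters' processing notes without a role, and the deposited files' names and headers point to featureCounts and DESeq. Neither the annotation nor the filters or DESeq version used by the submitters could be stated from these sources. The deposited matrix holds signal values, which are read counts per gene after division by a library's size factor, made by the authors. Each library's values were whole multiples of 1 read for 100% of genes, within 0.001 read, so reads could be recovered. The deposited tables also give a fold, the ratio of group means made by the authors, and a p-value and adjusted p-value computed by the authors.

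Here log2(normalized count + 1) of 8346 genes with a mean of at least 10 was fitted with limma 3.58.1 (trend, group only, 9 libraries in 1 fit, R 4.3.3), with Benjamini-Hochberg adjustment over all tested genes. Fold changes are on that scale, so they understate changes of low genes. The test was also tried on simulated data, whose outcome is not given here. Since the values are normalized, the count tests on recovered reads were alternatives: edgeR 4.0.16 called 1811, 4984 and 3674 genes and DESeq2 1.42.0 called 2440, 5297 and 4162, for the 2 mutant groups against OreR (obe1/obe2 first) and for obe2/Df against obe1/obe2. Other alternatives were pseudocounts of 0.5 and 5, no filter or a mean of at least 50, TMM and quantile scaling, library weights, 6-library fits, a replicate block and leaving out each library. Pairs of libraries of a group differed by more than sampling noise (chi-square per degree of freedom from 49.7 upward). Counting errors cover counting only. Per-kilobase values, overlaps and gene order use Ensembl and RefSeq Release 6, a different build, so no coordinates are given; 15056 of 15334 symbols matched. All 9 members are named, with some of the genes of the other lists that passed the test, the genes most alike in profile, and neighbours or overlapping genes. The members and lists were chosen with earlier results of these data known.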

Additional observations from a re-analysis of the deposited data

How the results depend on the processing

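Of 720 alternative values for the counts and the 9 exosome genes, 676 kept their direction and side of the threshold. Rrp4, Rrp40, Rrp6 and Dis3 kept their calls in obe2/Df against OreR under every alternative run here. In the authors' deposited table, however, of these genes only Rrp4 has an adjusted p-value under 0.05. For each change below, the cause was not tested. In obe1/obe2 against OreR, library weights raised the genes called to 3451 and the exosome genes higher to 3, with Csl4 at 0.30 and Ski6 at 0.41 now called, and turned Rrp46 to 0.16. The weight of obe1/obe2 replicate 3 was 5.14, against 0.339 and 0.416 for replicates 1 and 2, so the weighted obe1/obe2 values rest mostly on replicate 3. DESeq2 called 2 higher, with Ski6 at 0.35. Only the 6 libraries of the pair left 0 higher, with Dis3 at 0.28, and quantile scaling turned Rrp46 to 0.082. In obe2/Df against OreR, quantile scaling turned Csl4 to -0.055 and Mtr3 to -0.22 and left Ski6 at 0.26, no longer called. Rrp42 was called with a mean of at least 50 (0.39), TMM factors (0.41), library weights (0.41) and DESeq2 (0.38). Between the mutant groups, quantile scaling left 1 higher and made 3 lower, with Rrp40 at 0.37 no longer called, Rrp46 at -0.68 and Mtr3 at -0.46 now called, and Ski6 at -0.14 and Rrp42 at -0.16 reversed. Library weights made 2 lower, with Rrp42 at 0.29 and Rrp46 at -0.45 called, and TMM turned Dis3 to 0.001. Quantile scaling moved the share of calls that were higher from 48.5% to 59.3% in obe1/obe2 against OreR and from 56.3% to 43.3% between the mutant groups.

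Leaving out 1 library at a time gave, in obe1/obe2 against OreR, from 0 to 2 exosome genes higher, Ski6 from 0.26 to 0.46, Rrp42 from -0.029 to 0.196, Rrp46 from -0.20 to 0.10 and Dis3 from 0.24 to 0.30. In obe2/Df against OreR it gave Rrp42 from 0.27 to 0.50 and Mtr3 from -0.063 to 0.104, and between the mutant groups Dis3 from -0.039 to 0.031. A replicate block gave 1581, 4854 and 3370 genes called in the 3 comparisons and changed no call of the 9 genes. Same-numbered libraries did not deviate together throughout (correlations from -0.197 to 0.521), so the numbers are not taken to pair them. For the other decay lists and Rrp45, alternatives were added after seeing the data: of 1440 values, 1294 kept their side, 71 were no longer called, 75 counts moved by more than 1.5 times and 0 reversed. Counting error was at most 4.82% of a group mean, and for Rrp40 in obe2/Df it was 3.12% where the SD was 1.98%.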
